A study of Mus musculus with 4 samples.

Results

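The sites described here are peaks that were called at the same place in both growth states of mouse embryonic fibroblasts. The sites were chosen by peak position and width alone: a peak of the proliferating list counted as shared when it and a single arrested peak each had at least 50% of their own length in common, on chromosomes 1 to 19. Of 103832 autosomal peaks in proliferating cells, 3720 met this rule (3.58%, 95% Wilson interval 3.47 to 3.70). They had 3720 different partners among 657384 arrested autosomal peaks (0.566%, interval 0.548 to 0.584). The lists as a whole, sex chromosomes included, held 109740 and 699290 peaks. The intervals cover counting error only.

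The cells were C57BL/6 fibroblasts from E13.5 embryos, used at passage 4, and all 4 samples carry the label KO. Cells were either growing asynchronously in medium with 10% serum or held for 72 hours in 0.1% serum, and chromatin was fixed with a pair of cross-linkers before immunoprecipitation with antibodies to pRb and sequencing (ChIP-seq). Each growth state gave 1 immunoprecipitated library with 1 deposited peak list, and 1 input that was not analysed here. Which gene the KO refers to is left unnamed in the labels, as are the number of embryos used and any pooling of the listed antibodies.

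The retinoblastoma protein pRb holds E2F transcription factors in check and recruits chromatin regulators. In resting cells it is poorly phosphorylated and bound to E2F. Cyclin-dependent kinases phosphorylate it as cells enter the cycle, which releases E2F. Its chromatin targets include promoters of cell cycle genes, and the series as a whole concerns its part in silencing retroelements, the mobile repeats of the genome. In cells that lack pRb, antibodies to it would recover only background chromatin. The labels do not say whether these cells made pRb, so the peaks are described as calls and not as binding sites.

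The comparison asks where calls coincided between growing and arrested cells and how those places differed from the others. Membership follows from the positions and widths of the peaks in both lists. With 1 library per growth state there is no replicate check, so everything below is a description of these lists, without tests.

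The shared calls lay only slightly above the general density of arrested peaks around proliferating peaks. Counting arrested peak centres around the centres of all 103832 proliferating peaks does not use the overlap rule. Within 100 bp on either side there were 6208 arrested centres, where the density between 1 and 10 kb away would place 5775. The ratio was 1.07 (95% Poisson interval 1.05 to 1.10), a difference of 433 centres. It was 1.09 within 25 bp (1.03 to 1.14), 1.06 within 300 bp (1.04 to 1.07) and 1.04 within 500 bp (1.03 to 1.05). The centre was thus a low, broad rise on a flat level, with no sharp maximum at zero distance.

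**Figure D1:**
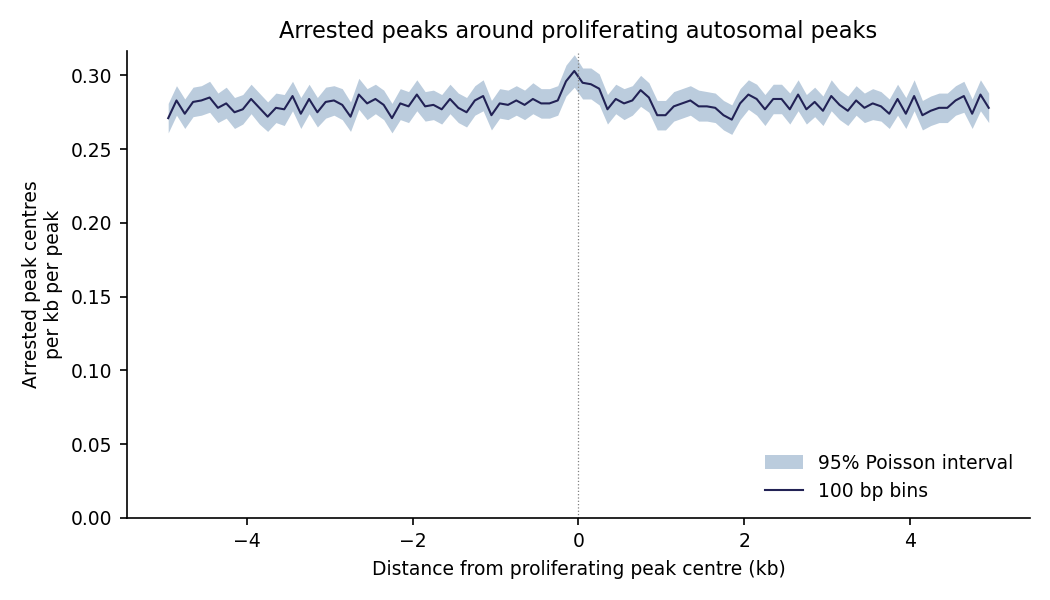
Arrested peak centres per kb for each proliferating autosomal peak (vertical axis) against distance from the proliferating peak's centre in kb (horizontal axis), in 100 bp bins with the 95% Poisson interval shaded. The bins touching the centre reach 0.303 and 0.295, on a level that stays near 0.28 across 5 kb on both sides.

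The rise was not even over peak classes. By proliferating score, the ratio within 100 bp was 1.04 (0.983 to 1.09) in the lowest 25% of the list and 1.08 (1.03 to 1.14) in the upper 25%. Between the upper 25% of both lists it was 1.05 (0.951 to 1.16), and between the upper 10% of both it was 1.11 (0.865 to 1.41) from 68 centres. Around the narrowest proliferating peaks, under 100 bp, it was 1.18 (1.06 to 1.31). Around peaks of 300 to below 500 bp it was 0.908 (0.678 to 1.19). By arrested width it was 1.01 (0.951 to 1.07) for peaks of 300 to below 500 bp, which made up 21.2% of the arrested list, and 1.24 (1.08 to 1.41) for those of 500 to below 1000 bp. It was 1.12 (1.06 to 1.18) for arrested peaks under 150 bp. The intervals of the score classes overlapped, while those of the arrested width classes did not all do so.

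The paired peaks matched in place rather loosely. The part common to a pair had a median of 135 bp, with quartiles of 110 and 155 bp, and the centres were a median of 38.0 bp apart (quartiles 19 and 57.5). In no pair were both start and end the same, while 24 pairs began and 26 ended on the same base. In 750 pairs (20.2%) the proliferating peak lay wholly inside its partner, and in 389 (10.5%) the reverse held. The proliferating centre was to the left in 1890 pairs and to the right in 1816, so the pairs had no common shift along the chromosome.

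Pairs crowded towards the limit of the rule. The smaller of a pair's shares of overlap was below 60% in 1244 pairs (33.4%) and at least 90% in 188 (5.05%). From 50% to below 51% there were 139 pairs, and from 49% to below 50% there were 132 overlapping pairs that the rule left out. Just inside the limit was a 127 bp peak on chromosome 1 (16262081 to 16262207) with a score of 31.29, of which 78 bp were common to a 156 bp partner with a score of 78.74. Next to it stood a 186 bp peak at 57199548 and a 150 bp peak at 92583429 on the same chromosome, with scores of 23.10 and 20.62. Just outside was a 201 bp peak on chromosome 3 (152980195 to 152980395, score 21.53) that lay wholly in an arrested peak of 403 bp and filled 49.9% of it. The next excluded peaks, on chromosome 11 at 45480336 and on chromosome 3 at 109175180, also lay wholly in their arrested peaks. The values on either side of the limit do not mark a natural break.

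Many more peaks touched an arrested peak than met the rule. At least 1 bp was common to 12040 proliferating peaks (11.6%), so the shared peaks were 30.9% of them (interval 30.1 to 31.7). Of the 8372 overlapping pairs outside the limit, 4528 (54.1%) fell short on both peaks. In 3426 (40.9%) the arrested peak alone was too wide for the overlap, and in 418 (4.99%) the proliferating peak was.

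Shared peaks were somewhat wider than the others. Their median width was 169 bp, with quartiles of 144 and 201 bp. Unshared proliferating peaks had a median of 153 bp (134 and 186), and those with a partial overlap 154 bp (135 and 190). Width takes part in the rule: the narrowest arrested peak measured 144 bp, so a proliferating peak needed at least 72 bp to qualify. A total of 599 peaks (0.577%) were narrower than that, and the narrowest shared peak measured 77 bp.

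The share rose with width over most of the range, which the rule itself favours, since a wider peak more easily covers enough of an arrested peak. Overlap of at least 1 bp rose less in proportion, from 9.78% under 100 bp to 13.6% from 200 to below 300 bp. The share that met the rule was 1.07% under 100 bp (54 of 5062, interval 0.819 to 1.39) and 2.81% from 100 to below 150 bp (2.66 to 2.98). It was 3.97% from 150 to below 200 bp (3.79 to 4.17) and 5.06% from 200 to below 300 bp (4.75 to 5.39). From 300 to below 500 bp it was 4.66% (3.50 to 6.18), within the interval of the class before. From 500 to below 1000 bp, 8 of 48 peaks were shared (16.7%, interval 8.70 to 29.6), and of the 12 peaks of at least 1000 bp 2 were.

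Partners were on the narrow side of the arrested list. Their median was 162 bp, against 166 bp for the other arrested peaks, and the third quartile was 208 bp against 295 bp. From 300 to below 500 bp, 0.261% of arrested peaks were partners (364 of 139564, interval 0.235 to 0.289), and from 150 to below 200 bp 0.669% were (0.639 to 0.700). The width of the arrested peak takes part in the rule as well, which favours narrow partners. With any overlap of at least 1 bp the order was the opposite, at 2.40% and 1.52% of the same classes. Of the partners, 521 (14.0%) had the list's minimum width of 144 bp, as did 11.8% of all arrested autosomal peaks. Within a pair the partner was wider in 2144 cases (57.6%) and narrower in 1550.

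Coinciding calls were not the strongest calls of the proliferating list. The authors' score of each peak has no stated scale, so it was used as a rank within its own list, from 0 to a highest percentile of 100. Shared peaks had a median percentile of 49.7 (score 24.25) and unshared ones 50.3 (score 24.36). Only 280 shared peaks (7.53%, interval 6.72 to 8.42) were in the upper 10% of the list, which held 9.99% of all autosomal peaks. That upper end of the list was also narrow: its upper 10% had a median width of 115 bp, and the 599 peaks too narrow to qualify had a median percentile of 99.2.

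Within width classes the share had no common direction with score rank. Among peaks of 150 to below 200 bp, 4.15% of the upper 10% of the list were shared (64 of 1542, interval 3.26 to 5.27), and 3.41% of its lowest 10% (3.03 to 3.83). Among peaks of 200 to below 300 bp the values were 5.31% (4.39 to 6.41) and 4.19% (3.26 to 5.37). Among peaks of 100 to below 150 bp the order was the opposite, with 2.57% (1.98 to 3.32) and 3.55% (2.77 to 4.54). Some steps of 10% in between lay apart beyond their intervals: from 100 to below 150 bp the ninth step from the lowest gave 2.17% (1.82 to 2.58) and the second 3.23% (2.86 to 3.65), and from 150 to below 200 bp the eighth gave 4.50% (3.84 to 5.27). The median percentile from 100 to below 150 bp was 34.0 for shared and 38.0 for unshared peaks. From 150 to below 200 bp both medians were 50.3, and from 200 to below 300 bp they were 61.2 and 60.3. Without peaks narrower than 100 bp, an alternative chosen after seeing the data, the order of the overall medians turned, to 49.4 for shared and 46.9 for unshared peaks.

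**Figure D2:**
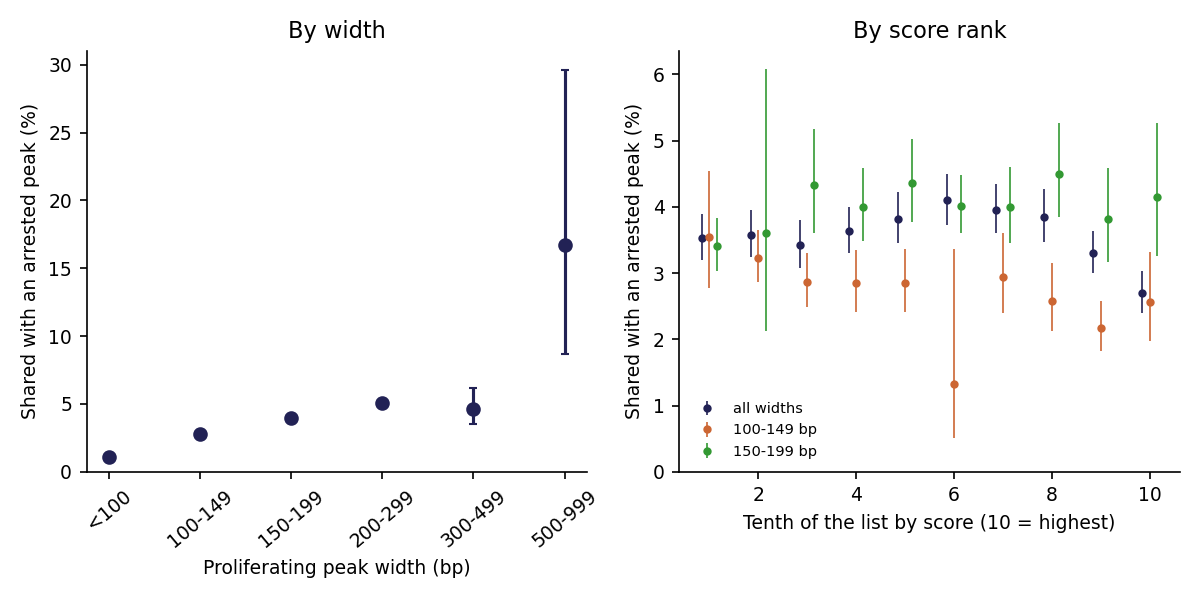
Percent of proliferating autosomal peaks that were shared, by peak width in bp (left, classes with at least 20 peaks) and by steps of 10% of the list by score (right, all widths and 2 width classes); bars are 95% Wilson intervals. The share climbs from 1.07% under 100 bp to 5.06% at 200 to below 300 bp. Across score ranks over all widths it lies between 3.31% and 4.10% below the highest step, which has 2.70%. At 150 to below 200 bp the highest step has 4.15%, within the 3.41% to 4.50% of the other steps.

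In the arrested list the partners ranked a little above the rest. Their median percentile was 54.5 (score 106.34), against 48.4 for the other arrested peaks (score 97.45). Of the partners, 455 (12.2%, interval 11.2 to 13.3) were in the upper 10% of the list, which held 10.5% of arrested autosomal peaks. The lowest ranks were thin in partners: 0.342% of the lowest 10% were partners (interval 0.300 to 0.390), and those peaks had a median width of 362 bp. At equal width the gap was smaller. From 100 to below 150 bp both medians were 59.9, from 200 to below 300 bp both were 34.6, and from 150 to below 200 bp they were 64.8 for partners and 59.9 for the rest. With overlaps of 30% or of 1 bp in place of 50%, the medians of partners and other peaks were both 48.4. At 50% but within the upper 50% of each list, ranked anew, both were 51.7. At overlaps of 70% and of 90% partners stood at 59.9 and other peaks at 48.4. Within the upper 10% of each list, with 33 shared peaks, they stood at 52.9 and 48.9. The higher rank of partners was thus seen under some settings and not under others.

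A high rank in one list did not go with a high rank in the other. Across the 3720 pairs, Pearson's r and Spearman's rho of the percentiles were both -0.06. With both peaks under 200 bp, 2218 pairs gave 0.01 and 0.01. The peaks of a pair have position, and so base composition and mappability, in common, and the correlations carry no test. Of the 810 pairs whose proliferating peak was in the upper 25%, 208 (25.7%, interval 22.8 to 28.8) had a partner in the upper 25% of the arrested list. Of the 913 pairs from the lowest 25%, 270 did (29.6%, interval 26.7 to 32.6). The intervals overlapped, and 33 pairs in all (0.887%) were in the upper 10% of both lists.

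**Figure D3:**
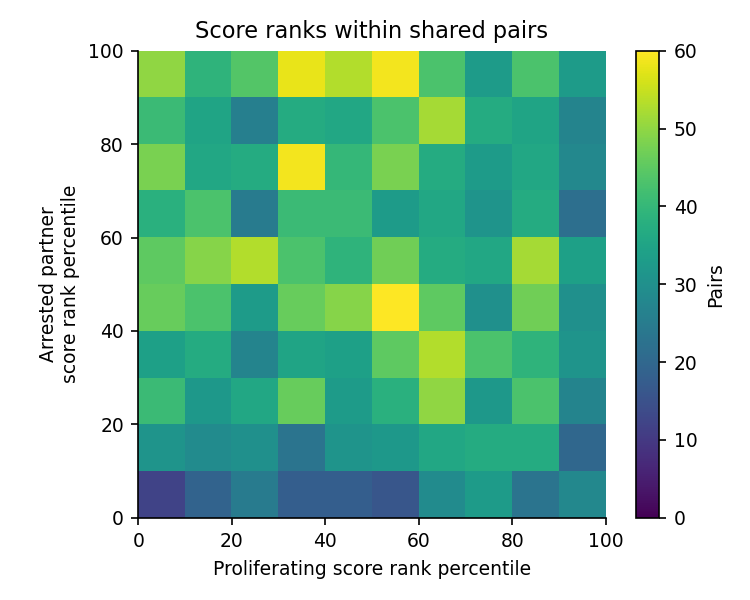
Number of shared pairs (colour) by score rank percentile of the proliferating peak (horizontal axis) and of its arrested partner (vertical axis), in steps of 10 percentiles with 100 as the highest score. Pairs fill the square without a diagonal, thinnest along the bottom where arrested ranks are lowest, and 33 pairs lie in the upper right cell.

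The pair that ranked best in both lists was on chromosome 5. Its proliferating peak ran over 411 bp (60433903 to 60434313, mm9) with a score of 69.37, percentile 99.9. It lay wholly inside a 556 bp arrested peak (60433865 to 60434420) with a score of 514.56, percentile 99.8. It stood at rank 128 of the proliferating and 1137 of the arrested list, and the pair next in order at ranks 1753 and 8187.

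That second pair was on chromosome 16, with a 213 bp peak (31366228 to 31366440, score 50.80) and a 156 bp partner with a score of 369.28. The following pairs were on chromosome 12 at 85339100 (scores 49.28 and 299.90), on chromosome 1 at 33503680 (46.67 and 296.40) and on chromosome 14 at 26635104 (43.49 and 621.84). In the chromosome 1 pair the peaks had nearly equal extent, with 129 bp of the 135 bp proliferating peak in common. The others of the best 10 were on chromosome 15 at 62570093, chromosome 12 at 111247849, chromosome 8 at 97060641, chromosome 1 at 190877530 and chromosome 2 at 64501682. Their proliferating scores ran from 40.49 to 49.28 and their partners' scores from 251.88 to 445.76. The chromosome 8 peaks had the same centre, and the peaks at 190877530 and 64501682 were 78 bp wide, among the narrowest that were shared.

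The 5 shared peaks with the highest proliferating scores mostly had partners of low arrested score. Among them the highest proliferating score was 74.94, at chromosome 4 from 145150671 to 145151169, in a peak whose partner of 283 bp scored 28.98, percentile 4.5 of the arrested list. After the chromosome 5 pair came a 193 bp peak on chromosome 2 at 72070241 (score 69.05, partner 38.03) and a 233 bp peak on chromosome 9 at 123194211 (score 68.91, partner 29.30). These partners were at percentiles 9.1 and 4.6. The last of the highest 5, an 89 bp peak on chromosome 2 at 58028994 (score 68.75), had a partner with a score of 163.94. Among all 280 shared peaks in the upper 10% of the proliferating list, 28 had partners in the lowest 10% of the arrested list and 33 in its upper 10%. Over all 3720 shared peaks these counts were 221 and 455.

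The 5 highest-scoring partners belonged to proliferating peaks of mostly middling score. The highest partner score, 1462.49, was that of a 905 bp peak on chromosome 12 (98299463 to 98300367), the ninth of the arrested list, and its proliferating peak of 526 bp scored 25.31, percentile 55.2. A score of 621.84 was held by the chromosome 14 partner named above and by a 157 bp partner on chromosome 8, whose proliferating peak at 83543749 scored 23.15. Partners with 538.95 on chromosome 13 and 525.39 on chromosome 16 belonged to proliferating peaks with scores of 22.80 and 25.60. Only the chromosome 14 pair among these 5 was in the upper 10% of the proliferating list.

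The widest shared peaks had low arrested ranks. A 1794 bp peak on chromosome 5 (15183906 to 15185699, score 30.43) had 1004 bp in common with a 1602 bp partner that scored 54.13. A 1291 bp peak on chromosome 8 (19768780 to 19770070, score 26.78) had 1250 bp in common with a 1765 bp partner that scored 50.48. The third, 827 bp wide on chromosome 8 at 72007095, scored 22.49 and its 914 bp partner 56.55. All 3 partners were below the 17th percentile, at 15.9, 14.8 and 16.8. Wide arrested peaks that were no partners also ranked low. Their median percentile was 30.8 from 500 to below 1000 bp and 24.3 from 1000 bp, against 48.4 over all widths.

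The shared part of the list hardly varied between chromosomes. It was lowest on chromosome 7, at 3.28% (182 of 5556, interval 2.84 to 3.78), and highest on chromosome 17, at 4.11% (159 of 3869, interval 3.53 to 4.78). The intervals of all 19 autosomes held the pooled 3.58%. With the stretch from the first to the last peak of each chromosome cut into 10 equal parts, it ranged from 3.37% (3.05 to 3.72) to 3.74%, the value of the most distal part. Neither end of the chromosomes stood apart.

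**Figure D4:**
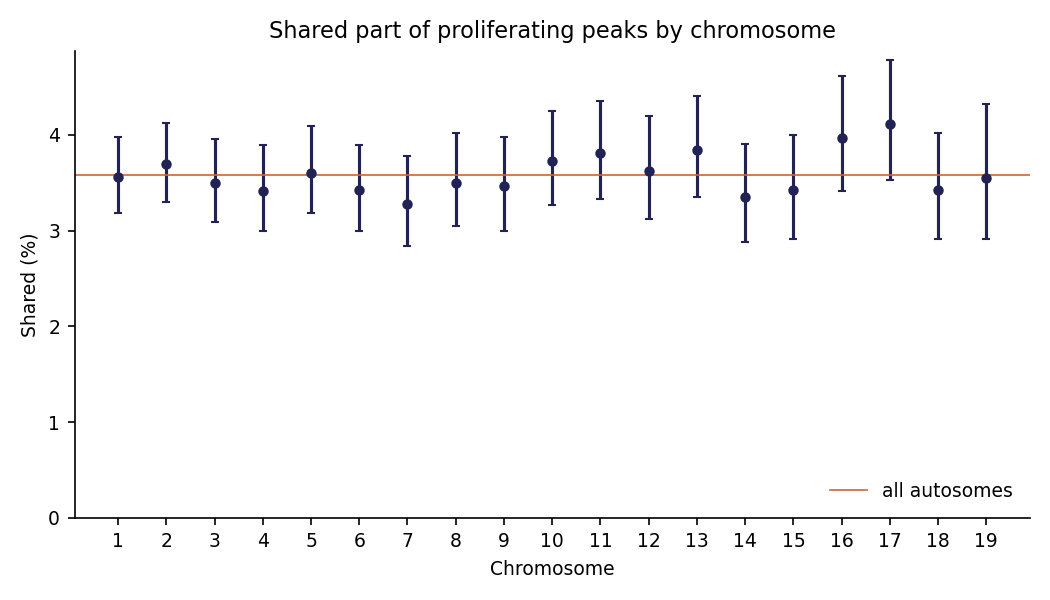
Percent of proliferating peaks that were shared (vertical axis) on each autosome (horizontal axis), with 95% Wilson intervals; the line is the pooled value of 3.58%. The points lie between 3.28% and 4.11%, and each interval crosses the line.

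The share was higher where arrested peaks were more numerous, though not in even steps. In the 20% of the 2417 windows of 1 Mb with fewest arrested peaks (3 to 257), 615 of 19528 proliferating peaks were shared (3.15%, interval 2.91 to 3.40). In the 20% with most (296 to 370) 786 of 19846 were (3.96%, interval 3.70 to 4.24). The steps of 20% between them gave 3.58% (3.35 to 3.84), 3.22% (2.99 to 3.47) and 3.97% (3.72 to 4.24), so the increase was not even. Within 50 kb, shared peaks had a median of 28.0 arrested peaks other than those they overlapped, and unshared peaks 27.0. Both had a median of 4 other proliferating peaks within the same distance.

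Shared peaks had little tendency to lie side by side. After a shared peak, the next proliferating peak was also shared in 156 of 3720 cases (4.19%, interval 3.6 to 4.89), and after an unshared one in 3.56% (3.45 to 3.68). For the nearest peak on either side the values were 4.06% (3.47 to 4.74) and 3.57%. The distance to the nearest other proliferating peak had a median of 7552 bp for shared and 7679 bp for unshared peaks. From one shared peak to the next the median distance was 435 kb, with quartiles of 170 and 898 kb. Most shared peaks stood alone, 3418 of them, while 136 runs had 2 and 10 runs had 3 in succession.

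Of the 10 longest runs, the tightest of the first 5 by position was on chromosome 4, where 3 shared peaks with scores of 20.28, 20.06 and 27.35 fell within 1.56 kb (30242852 to 30244416). The other 4 spanned 25.2 to 70.1 kb and were on chromosome 1 from 187224002, chromosome 5 from 117677913, chromosome 8 from 66596685 and chromosome 10 from 27001904.

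A few megabases held more shared peaks than the rest. The median window had 1 shared peak, 568 windows (23.5%) had none and 15 had 6. The window from 30000001 to 31000000 on chromosome 17 had 12 among 86 proliferating peaks (14.0%, interval 8.17 to 22.8), that from 145000001 to 146000000 on chromosome 4 had 10 of 96 (10.4%, 5.76 to 18.1) and that from 187000001 to 188000000 on chromosome 1 had 8 of 59 (13.6%, 7.03 to 24.5). These windows were picked as the extremes of 2417, so their values describe them and show nothing further. By position the next began at 97000001 and 154000001 on chromosome 3, with 6 of 56 and 6 of 59.

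**Figure D5:**
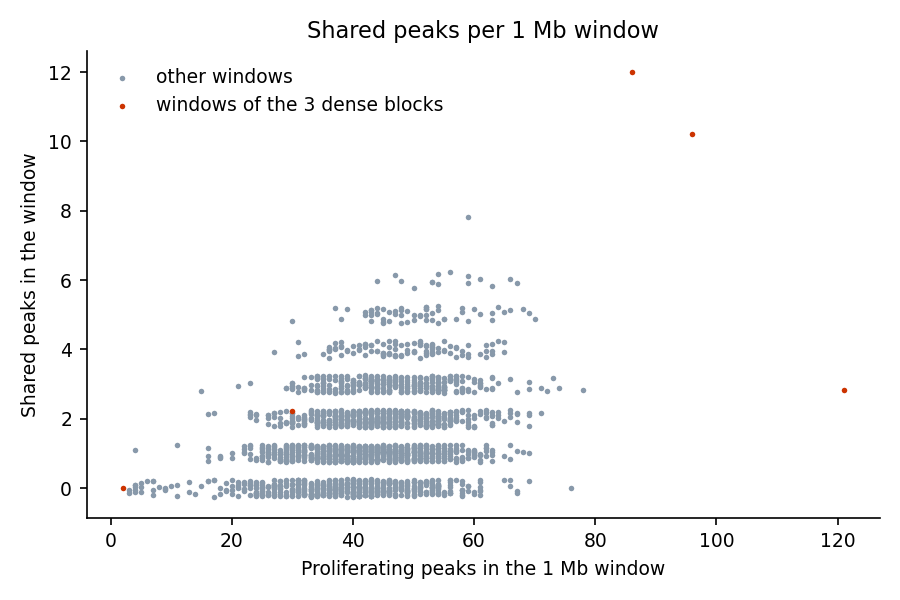
Shared peaks (vertical axis, points spread slightly up and down around whole numbers) against all proliferating peaks (horizontal axis) in each of 2417 autosomal windows of 1 Mb; red marks the windows of dense blocks on chromosomes 4, 8 and 17. The windows with 12 and 10 shared peaks stand above the others, whose highest is 8, and the window with most proliferating peaks, 121, has 3.

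The chromosome 17 window differed from the chromosome 1 window in the width and partner rank of its shared peaks. Its 12 shared peaks were spread over 692 kb (30304623 to 30996126), had widths of 189 to 571 bp with a median of 355 bp, and scores of 21.30 to 51.89. Of their partners 11 were below the 19th percentile of the arrested list, with a median of 9.28 over all 12, and 1 had a score of 344.56. Arrested peaks of that window ranked low in general, with a median percentile of 19.5, and all its proliferating peaks had a median width of 212 bp. For the chromosome 1 window such medians over all peaks are not given here. Over all autosomes, arrested peaks of 300 to below 500 bp had a median percentile of 16.2, partners or not. The closest match in the chromosome 17 window was between a 419 bp peak (30950141 to 30950559, score 51.89) and a 454 bp partner with a score of 44.93, with a smaller share of 91.9%. On chromosome 1 the 8 shared peaks had a median width of 180 bp and partners with a median percentile of 62.1, from 10.1 to 99.2. Of these, a 167 bp peak at 187224002 (score 25.35) matched a 158 bp partner (score 273.00) with a smaller share of 94.6%.

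On chromosome 4 the neighbouring megabases both had much overlap of any size, with fewer shared peaks in the second. In the megabase from 145000001, 43 of 96 proliferating peaks overlapped an arrested peak (44.8%, interval 35.2 to 54.7), and in the one from 146000001 42 of 121 did (34.7%, 26.8 to 43.5), where all autosomes gave 11.6%. The numbers that met the 50% rule were 10 and 3, but the first megabase was picked above for that number, so the contrast shows nothing further. Arrested peaks covered 17.4% of both megabases together and 6.02% of chromosome 4. Arrested peaks were wide in both, with medians of 411 and 408 bp against 166 bp over all autosomes. In 69.4% and 59.5% of the overlapping pairs outside the limit only the arrested peak was too wide, against 40.9% over all autosomes. The 10 shared peaks of the first megabase had a median width of 270 bp, and their partners' percentiles ran from 3.09 to 63.1 with a median of 13.6. All arrested peaks of that megabase had a median percentile of 10.5, so the partners did not rank lower than the rest. Between 19000001 and 21000000 on chromosome 8, 8 of 32 proliferating peaks overlapped an arrested one and 2 were shared.

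Those 3 blocks together held 27 of the 3720 shared peaks. On chromosome 4, 13 of the block's 217 proliferating peaks were shared (5.99%, interval 3.53 to 9.98). On chromosome 17, 12 of 86 were (14.0%, 8.17 to 22.8), and on chromosome 8, 2 of 32 (6.25%, 1.73 to 20.1). Over all autosomes the share was 3.58%. Around the 335 proliferating peaks of the 3 blocks there were 43 arrested centres within 100 bp. The density 1 to 10 kb away would place 27.4 (ratio 1.57, interval 1.14 to 2.11). Outside them the ratio was 1.07, as over all autosomes. The blocks were chosen for their many or wide peaks in these lists, so their shares and ratio are descriptions.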

How the data were processed

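The tools named per the submitters' processing notes are Bowtie2, MACS2, HOMER and bedtools, and the build is mm9; for versions, settings, use of the inputs and duplicate reads, the sources used here give nothing. The authors deposited 1 peak list per immunoprecipitate, with 5 columns (chromosome, start, end, name, score) and no header. The deposited score has no stated scale and starts at 20.0 in both lists; it was used only for ranks within a list, ties at their mean. Read counts are absent from the lists and the depth behind a peak is unknown. Peaks within a list did not overlap. Coordinates are mm9, written 1-based. No mm9 genome or annotation was used here, so no sequence, gene or repeat is given.

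Samples were grouped by title, with 1 library per growth state, so no test was run. Members, lists and classes were chosen with earlier results of these data known. Named peaks are the 10 pairs with the best lower percentile, the 5 highest by score on either side, the 3 widest, the 3 on each side of the limit, the 5 fullest windows and the 5 longest runs, ties by position. Intervals are 95% Wilson for shares and exact Poisson for centre ratios (normal approximation in the plot). Overlap calls matched a plain comparison for 300 peaks with 0 disagreements. Python 3.11.15, numpy 2.4.6, pandas 2.3.3, SciPy 1.17.1 and matplotlib 3.10.9 were used. Alternatives were overlap limits of 30%, 70%, 90% and 1 bp, the upper 50% and 10% by score, leaving out peaks of at least 1000 bp, dense blocks or sparse windows, adding X, 25 bp distances and 100 kb windows; leaving out narrow peaks was added after seeing the data.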

Additional observations from a re-analysis of the deposited data

How the results depend on the processing

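No paired analysis was possible because each growth state had 1 library, and for the same reason no replicate could be left out. Of the values recomputed, 58 lay inside the reported value's own interval (within 1.5 times it for counts and chromosome ratios, within 0.05 for correlations), 35 moved and 3 turned. Leaving out wide peaks, dense blocks or sparse windows, or adding X, moved none of them. An overlap of 30% gave 6.89% shared peaks with a median width of 163 bp and a partner percentile of 48.4. Of them 7.22% were followed by a shared peak, against 6.86% after unshared peaks. At 70% the same values were 1.43%, 162 bp, 59.9 and 1.82% (against 1.42%), with a proliferating percentile of 46.9. At 90%, with 188 shared peaks, they were 0.181%, 154 bp, 59.9 and 0.532% (against 0.18% after unshared peaks), with a percentile of 43.7. The ratio of the highest to the lowest chromosome share was then 4.08 (1.25 in the report). With so few shared peaks, that ratio and the percent followed by a shared peak rest on very small counts. With 1 bp the same values were 11.6%, 158 bp, 48.4 and 12% (against 11.5% after unshared peaks). The proliferating percentile then turned to 50.9 against 50 for unshared peaks. At each of these overlap limits unshared peaks had a median width of 153 bp, and arrested peaks that were no partners a percentile of 48.4. The upper 50% of each list, ranked anew, gave 1.83% shared and percentiles of 42.9 and 51.7 (other arrested peaks also 51.7). There 2.21% were followed by a shared peak, against 1.82% after unshared peaks. The upper 10% gave 33 shared peaks (0.318%), percentiles of 48.3 and 52.9 (other arrested peaks 48.9) and a centre ratio of 1.11. There 0% were followed by a shared peak, against 0.32% after unshared ones. That is counted as a turned order, but 33 shared peaks are too few to show one. Some chromosomes then had no shared peak, so no chromosome ratio was formed. Without proliferating peaks under 100 bp, 3.71% were shared and the proliferating percentile turned to 49.4 against 46.9. A stricter overlap limit lowers the share by construction, and a lower share lowers the percent followed by a shared peak. For all else that moved, the cause was not tested.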

Other observations

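The X chromosome, which the rule leaves out, gave a similar share to the autosomes. Of its 5905 proliferating peaks, 206 met the 50% rule (3.49%, interval 3.05 to 3.99), and 11.8% overlapped an arrested peak by at least 1 bp. Shared X peaks had a median width of 168 bp and unshared ones 153 bp. Their median percentiles in the proliferating list were 47.7 and 46.9, the opposite order to the autosomes (49.7 and 50.3), and partners stood at 54.5 in the arrested list against 48.4 for other arrested X peaks. Arrested centres within 100 bp of proliferating centres were 1.17 times as dense as 1 to 10 kb away (interval 1.05 to 1.30), where the autosomes together gave 1.07 and single autosomes ranged from 0.935 on chromosome 8 to 1.25 on chromosome 19.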
